A study of Mus musculus with 2 samples.

Results

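Collagens are the main structural proteins of cartilage, bone, vessels and skin, and 42 collagen genes were measured in newborn mouse heads of opposite parental duplications. The members were chosen by name, as every probe set whose single gene symbol on the array reads Col, digits, a, digits. The rule found 82 probe sets for 42 of 18193 genes, of which 27 had 2 or more probe sets and 15 had 1. They were grouped as 8 cartilage genes, 7 fibrillar genes of bone and skin, 9 basement membrane genes and 18 genes of other types. The MatDp(dist2) head came from a newborn offspring of mice carrying the reciprocal translocation T(2:9)11H between Chr 2 and Chr 9. Its Chr 2 beyond the breakpoint was maternal in both copies and its Chr 9 beyond the breakpoint was paternal in both copies. The PatDp(dist2) head came from the same kind of cross, with the paternal duplication of distal Chr 2 and the maternal duplication of distal Chr 9. Each genotype had 1 Affymetrix array of total RNA from the whole head, so no value below was set against a spread between animals and there is no test. Neither the sex of the animals nor how many stand behind each sample is stated in the labels. Below, MatDp(dist2) and PatDp(dist2) stand for these 2 heads.

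A collagen molecule is a triple helix of 3 alpha chains, each encoded by its own gene or by copies of the same gene, and each built from glycine repeats. Fibrillar collagens such as types I, II and III pack into the tension-bearing fibrils of bone, cartilage and skin. Network-forming type IV makes the sheet of basement membranes under epithelia and around vessels and muscle fibres. Smaller types decorate fibrils, anchor skin layers or span cell membranes.

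Signals are the authors' deposited intensities on a linear scale, with each array scaled to the same trimmed mean of 500.002. The highest signal was 22236 in MatDp(dist2) against 22894.5 in PatDp(dist2), and the lowest was 0.1 on both arrays. A floor of 187, midway between the array medians of 201 in MatDp(dist2) against 173 in PatDp(dist2), marks signals too dim to compare. It was reached by 51.6% of probe sets in MatDp(dist2) and 48.3% in PatDp(dist2). A gene counts as measured once either array reached the floor, and where only 1 did, that signal divided by the floor gives a bound. Each gene is represented by its brightest probe set unless another is named. A difference is called where the ratio, or its bound, reached 2-fold. Brightness differs between probe sets for reasons of design, so only ratios are compared between genes.

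Of the 42 collagen genes, 38 were measured, 35 of them on both arrays and 3 as a bound. Col2a1 and Col9a3, both of cartilage, were at least 2-fold higher in MatDp(dist2), and 0 collagen genes were at least 2-fold higher in PatDp(dist2). Those 2 of 38 genes, 5.26%, lie near the background, since 4.43% of all 12483 measured genes were at least 2-fold higher in MatDp(dist2) and 3.47% in PatDp(dist2). The median log2 ratio, MatDp(dist2) over PatDp(dist2), was -0.10 for the collagens and 0.02 for all measured genes. By probe set, 4 of 60 measured collagen probe sets were at least 2-fold higher in MatDp(dist2) and 1 was in PatDp(dist2). Over all 20764 measured probe sets with 1 symbol the shares were 4.22% toward MatDp(dist2) and 2.95% toward PatDp(dist2). The 4 belonged to Col2a1, Col9a1 and Col9a3, and the 1 in the other direction to Col1a1. The classes differed in direction: the median log2 ratio was 0.40 for 7 measured cartilage genes, -0.33 for 7 fibrillar genes, -0.28 for 8 basement membrane genes and -0.02 for 16 genes of other types. The 3 bounds, 1 in cartilage and 2 in basement membranes, reached the floor in MatDp(dist2) alone, which fixed their direction. Over the genes measured on both arrays the median was 0.62 for 6 cartilage genes and -0.40 for 6 basement membrane genes.

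**Figure D1:**
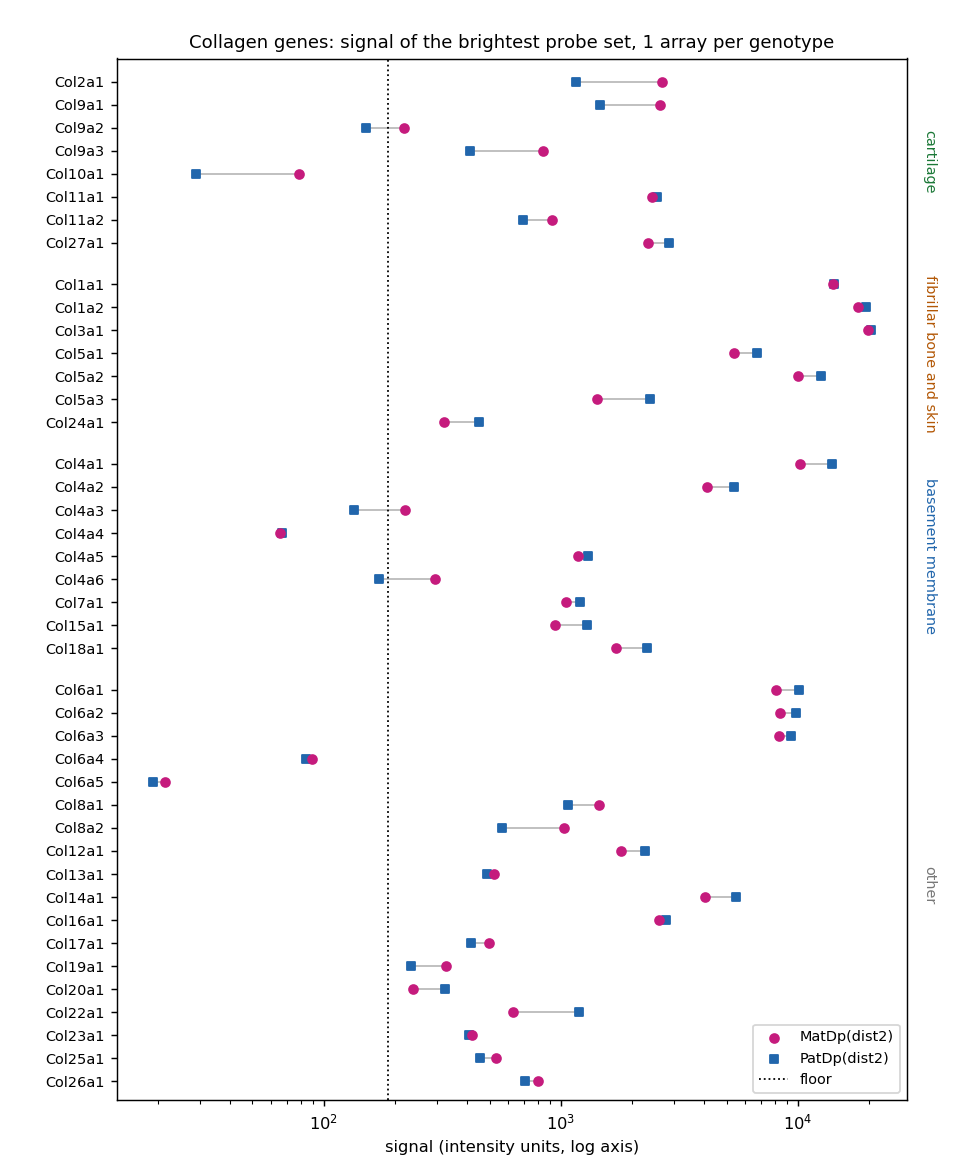
Signal of the brightest probe set of each of the 42 collagen genes in MatDp(dist2) (circles) and PatDp(dist2) (squares), on a log axis in intensity units, 1 array per genotype; the dotted line is the floor of 187. Col2a1, Col9a1 and Col9a3 lie to the right in MatDp(dist2), the type I and III genes nearly coincide, and Col4a4, Col6a4, Col6a5 and Col10a1 lie left of the floor on both arrays.

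The cartilage collagens with the widest gaps were Col2a1, Col9a1 and Col9a3, whose types II and IX share the fibrils of hyaline cartilage. Col2a1, the chain of the main cartilage collagen, had a signal of 2660.5 in MatDp(dist2) against 1159 in PatDp(dist2), a 2.29-fold difference on its 1 probe set. Col9a1, the first chain of type IX, which coats type II fibrils, had 2624 in MatDp(dist2) against 1467 in PatDp(dist2) on probe set 1428571_at, 1.79-fold. Its other probe set, 1421381_a_at, had 732 in MatDp(dist2) against 328 in PatDp(dist2), 2.23-fold. Both Col9a1 probe sets thus gave the higher signal to MatDp(dist2), and the brighter of them stayed under 2-fold. Col2a1 came just under 2-fold, at a log2 ratio of 0.99, when each array was centred on its own median, and stayed past it under the other scalings tried.

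Col9a3, the third chain of type IX, had 839.6 in MatDp(dist2) against 412.5 in PatDp(dist2) on 1460693_a_at, a 2.04-fold difference that is just inside the threshold. It was under 2-fold with median centring, at a log2 ratio of 0.81, and with quantile normalization and a loess fit, at 0.93 in both. Probe set 1460734_at had 654 in MatDp(dist2) against 266 in PatDp(dist2), 2.46-fold, while 1420280_x_at lay below the floor on both arrays, with 52.6 in MatDp(dist2) against 16.7 in PatDp(dist2). Col9a2, the middle chain, had 218.5 in MatDp(dist2) against 151 in PatDp(dist2), below the floor, a bound of at least 1.17-fold. Both chains of type IX measured on both arrays, Col9a1 and Col9a3, thus had the higher signal in MatDp(dist2). The direction of Col9a2 was fixed by the floor, which it reached in MatDp(dist2) alone. In bulk tissue, more cells of a type and more RNA per cell cannot be told apart.

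Of the 3 genes with a probe set past 2-fold in MatDp(dist2), 2 encode type IX chains, so the bases just before its gene starts are shown, with Col1a2, a chain of bone and skin with nearly equal signals, beside them. RefSeq promoter windows on GRCm38.p6 were matched by gene ID for 33 of the 42 collagen genes, in 36 windows, since some genes have more than 1 start. Neither Col2a1 nor Col9a3 was among the genes matched. Col9a1 has 2 listed starts, and is known to make a long cartilage form from the first and a short form, found in the eye, from the second. Each window below holds the 250 bases before the start, on the strand of the gene, 5′ to 3′. Capitals mark 4 motifs searched on both strands: the SOX core ACAAAG, the TATA box TATAAA, the GC box GGGCGG and the CCAAT box CCAAT. No motif overlaps another in these windows.
Col9a1, first start, chr1:24177360-24177609, plus strand: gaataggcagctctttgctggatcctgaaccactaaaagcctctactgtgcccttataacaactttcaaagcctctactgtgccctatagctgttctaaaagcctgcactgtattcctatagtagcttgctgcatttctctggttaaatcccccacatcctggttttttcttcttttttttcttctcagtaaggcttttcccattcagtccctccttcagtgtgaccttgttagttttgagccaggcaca
Col9a1, second start, chr1:24194953-24195202, plus strand: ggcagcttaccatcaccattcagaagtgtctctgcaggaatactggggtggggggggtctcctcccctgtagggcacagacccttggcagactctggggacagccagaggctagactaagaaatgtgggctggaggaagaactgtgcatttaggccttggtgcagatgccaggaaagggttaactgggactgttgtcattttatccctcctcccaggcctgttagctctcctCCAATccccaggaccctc
Col9a2, chr4:121039316-121039565, plus strand: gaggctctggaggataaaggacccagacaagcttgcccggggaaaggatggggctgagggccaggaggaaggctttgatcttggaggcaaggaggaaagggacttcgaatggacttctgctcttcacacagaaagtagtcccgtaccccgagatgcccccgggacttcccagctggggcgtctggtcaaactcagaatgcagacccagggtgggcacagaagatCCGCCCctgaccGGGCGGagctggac
Col1a2, chr6:4505368-4505617, plus strand: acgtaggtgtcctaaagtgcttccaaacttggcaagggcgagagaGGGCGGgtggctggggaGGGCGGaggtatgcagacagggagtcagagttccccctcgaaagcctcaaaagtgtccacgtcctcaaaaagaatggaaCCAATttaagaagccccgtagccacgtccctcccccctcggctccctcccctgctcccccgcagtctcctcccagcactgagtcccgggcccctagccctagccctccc

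The windows differ in makeup. G and C made up 43.6% of the first Col9a1 window, 56% of the second, 60.4% of the Col9a2 window and 62% of the Col1a2 window. The first Col9a1 window held 0 of the 4 motifs. The second held a CCAAT box from 18 to 14 bases before the start. Col9a2 held a GC box in each orientation, from 26 to 21 and from 14 to 9 bases before the start, and Col1a2 held GC boxes from 205 to 200 and from 188 to 183 and a CCAAT box from 109 to 105. Over the collagens, 21 of 36 windows held a GC box, 58.3%, against 32.7% of 32851 windows of all genes. A CCAAT box was in 13, or 36.1%, against 33.8%. TATA boxes were in 5 windows, or 13.9%, against 12.4%. The SOX core, which SOX9 and its relatives bind, was in 3 windows, or 8.33%, against 16.5%, and in 1 of 7 cartilage windows, which leave out Col2a1 and Col9a3. A match describes these letters only, and enhancers farther from the start, through which SOX9 is known to act on Col2a1, lie outside such windows.

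The remaining cartilage genes differed less or lay too low to compare. Col11a1, a chain of the type XI collagen inside cartilage fibrils, had nearly equal signals of 2431 in MatDp(dist2) against 2534 in PatDp(dist2), and its second probe set had 2184 in MatDp(dist2) against 2433 in PatDp(dist2). Col11a2 had 913.5 in MatDp(dist2) against 692 in PatDp(dist2), 1.32-fold. Type XI is assembled from the products of Col11a1, Col11a2 and Col2a1, and the log2 ratios of these 3 genes spanned 1.26. Col27a1, a fibrillar gene of cartilage, had 2332 in MatDp(dist2) against 2863 in PatDp(dist2), a log2 ratio of -0.30, and -0.28 on its other probe set. Col10a1, the mark of hypertrophic cartilage, did not reach the floor on either array, with 78.2 in MatDp(dist2) against 28.8 in PatDp(dist2).

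Cartilage genes other than collagens gave no call among those measured on both arrays. Of 16 on the arrays 7 were measured on both, of which 5 had the higher signal in MatDp(dist2) and 0 were 2-fold apart, with a median log2 ratio of 0.37. Another 6 reached the floor in MatDp(dist2) alone, which fixed their direction, and 3 of these were at least 2-fold higher there as bounds. That count was 4 with the floor at the 30th percentile, 2 with quantile normalization or the loess fit, and 1 with median centring. With the offset of 100 it was 0 of 13 measured genes. It was also 0 with the floor at the 70th percentile, where 5 genes were measured, and with the mean over probe sets, where 7 were. Those last settings leave out the 3 genes called as bounds, so their 0 does not place these genes under 2-fold. Sox5, a partner of SOX9, had 402 in MatDp(dist2) against 83.7 in PatDp(dist2). Cnmd, which encodes chondromodulin, had 399 in MatDp(dist2) against 163 in PatDp(dist2). Snorc, a small cartilage proteoglycan gene, had 385 in MatDp(dist2) against 149 in PatDp(dist2). All 3 thus reached the floor in MatDp(dist2) and lay below it in PatDp(dist2). Matn4, a matrilin, had 595 in MatDp(dist2) against 346 in PatDp(dist2). Sox6 and Cilp were on the other side. Sox6 had 1332 in MatDp(dist2) against 1857 in PatDp(dist2). Cilp had 825.7 in MatDp(dist2) against 1418.3 in PatDp(dist2), a log2 ratio of -0.78. The defining cartilage genes Sox9 and Acan, picked out after their values were seen, stayed under 2-fold. Sox9 had 390.1 in MatDp(dist2) against 236.1 in PatDp(dist2), and Acan, the main cartilage proteoglycan, had 684.1 in MatDp(dist2) against 528.7 in PatDp(dist2). Matn3, Chad and Ucma did not reach the floor on either array. The signals of the list summed to 6868 in MatDp(dist2) and to 6051 in PatDp(dist2). Its part in the collagen ratios was not tested.

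**Figure D2:**
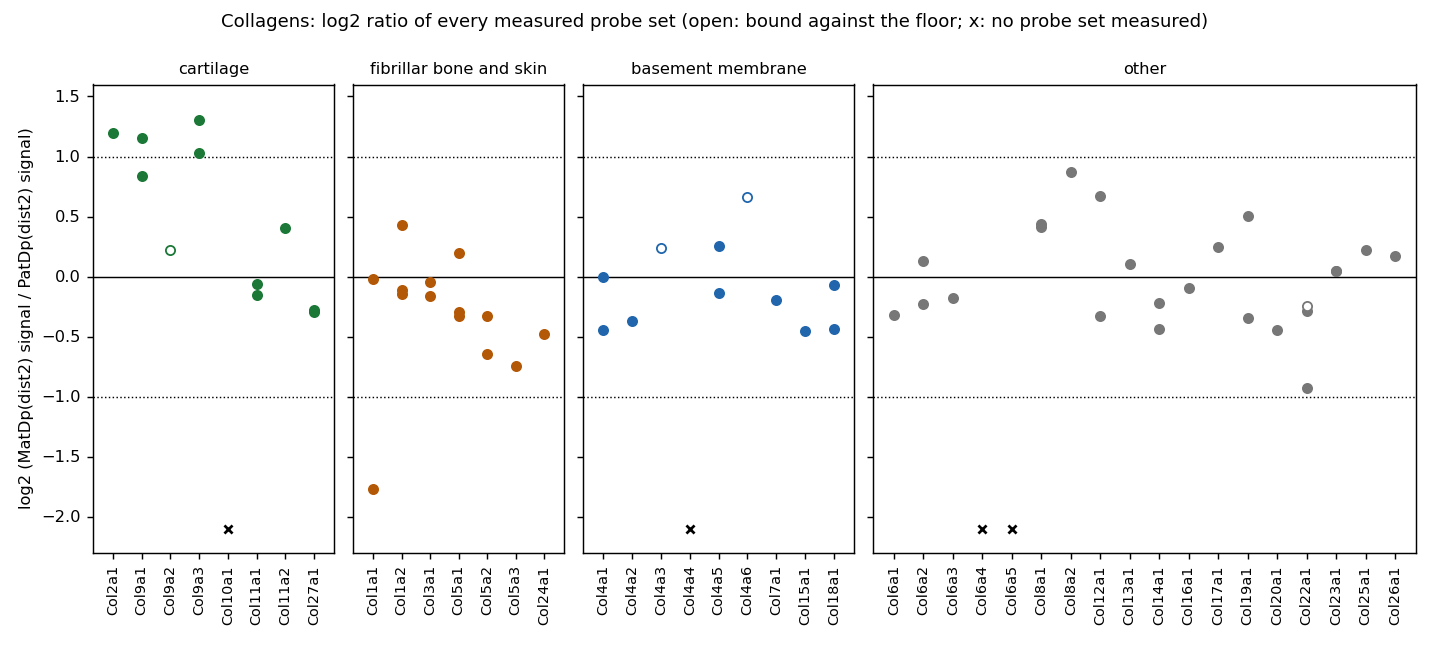
Log2 ratio of MatDp(dist2) over PatDp(dist2) for each of the 60 measured collagen probe sets, by gene and class; open circles are bounds against the floor, crosses mark the 4 genes with no measured probe set, and dotted lines mark 2-fold. Probe sets of Col2a1, Col9a1 and Col9a3 lie near or above 1, and 1 of the 2 Col1a1 probe sets lies at -1.77, apart from the other at -0.02.

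The type I and III genes, the main fibrillar collagens of bone and skin, differed little on their brightest probe sets. Type I is the main protein of bone, tendon and skin. Its chain gene Col1a1 had 14079.5 in MatDp(dist2) against 14256 in PatDp(dist2). Col1a2, the gene of its other chain, had 17859 in MatDp(dist2) against 19328 in PatDp(dist2). Col3a1, whose type III fibrils accompany type I in skin and vessels, had 19692 in MatDp(dist2) against 20316 in PatDp(dist2). The log2 ratios of these 3 genes lay between -0.11 and -0.02. All 7 fibrillar genes had the lower signal in MatDp(dist2), although 2 of them turned positive with quantile normalization, 3 with a loess fit and 1 with the mean over probe sets. On the arrays as a whole bright genes leaned the same way: of 759 genes with a mean log2 signal of at least 12, 24.9% had a positive log2 ratio and the median was -0.21. All 11 collagens that bright had a negative ratio, with a median of -0.32.

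Type V chains, which start type I fibrils and limit their width, had somewhat lower signals in MatDp(dist2). Col5a1 had 5370.3 in MatDp(dist2) against 6740.3 in PatDp(dist2). Col5a2 had 10029 in MatDp(dist2) against 12565 in PatDp(dist2). The log2 ratio of each was -0.33 on its brightest probe set. The second Col5a2 probe set had 4934 in MatDp(dist2) against 7725 in PatDp(dist2), a log2 ratio of -0.65. Of the other Col5a1 probe sets, 1434479_at had a log2 ratio of -0.30 and 1416741_at one of 0.20. Col5a3, the least widespread chain, had 1418 in MatDp(dist2) against 2384 in PatDp(dist2), 1.68-fold lower in MatDp(dist2) and the widest gap among the fibrillar genes. Its second probe set lay below the floor, with 7.8 in MatDp(dist2) against 15.5 in PatDp(dist2). Col24a1, a gene of forming bone, had 322 in MatDp(dist2) against 450.3 in PatDp(dist2).

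Probe sets of the same gene disagreed most for Col1a1. Probe set 1455494_at had 2048 in MatDp(dist2) against 6972 in PatDp(dist2), 3.41-fold, whereas the brighter 1423669_at differed by a log2 ratio of -0.02. The gap of 1.75 on the log2 scale is the widest among the 19 collagens with 2 or more probe sets measured on both arrays, whose median gap was 0.36. Among 4369 such genes on the arrays the median gap was also 0.36, and 20 genes, 0.458%, had a gap as wide as that of Col1a1. With the mean over both probe sets the log2 ratio of Col1a1 was -0.89. The stretch of the transcript read by each of them was not analysed here. Col12a1 came next, with 955 in MatDp(dist2) against 601 in PatDp(dist2) on 1427391_a_at, but 1796 in MatDp(dist2) against 2261 in PatDp(dist2) on 1434411_at. Probe sets also gave opposite directions for Col1a2, Col4a5, Col5a1, Col6a2 and Col19a1, by gaps of 0.36 to 0.85.

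As deposited, bone genes outside the collagens were close to even. So was type I on its brightest probe sets, though not on the second Col1a1 probe set. Of 7 bone genes measured, 0 were 2-fold apart, with a median log2 ratio of -0.11 as deposited. That median was 0.03 with a loess fit, 0.01 with quantile normalization and 0.17 with the mean over probe sets. With median centring, which put the median of all genes at -0.19, it was -0.32. Ibsp, bone sialoprotein, had 9564 in MatDp(dist2) against 10286 in PatDp(dist2). Sp7, a regulator of bone-forming cells, had 709 in MatDp(dist2) against 848 in PatDp(dist2). Dlx5, a homeobox gene of jaw and skull, was the widest at 1.69-fold higher in MatDp(dist2), with 669.5 in MatDp(dist2) against 397 in PatDp(dist2). Among 9 skin fibroblast genes 1 was at least 2-fold higher in MatDp(dist2), Crabp1, with 583 in MatDp(dist2) against 264 in PatDp(dist2), and the median was -0.04. Tnmd, the tendon protein tenomodulin, had 1698 in MatDp(dist2) against 4002 in PatDp(dist2), and was the 1 of 5 tendon genes called.

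**Figure D3:**
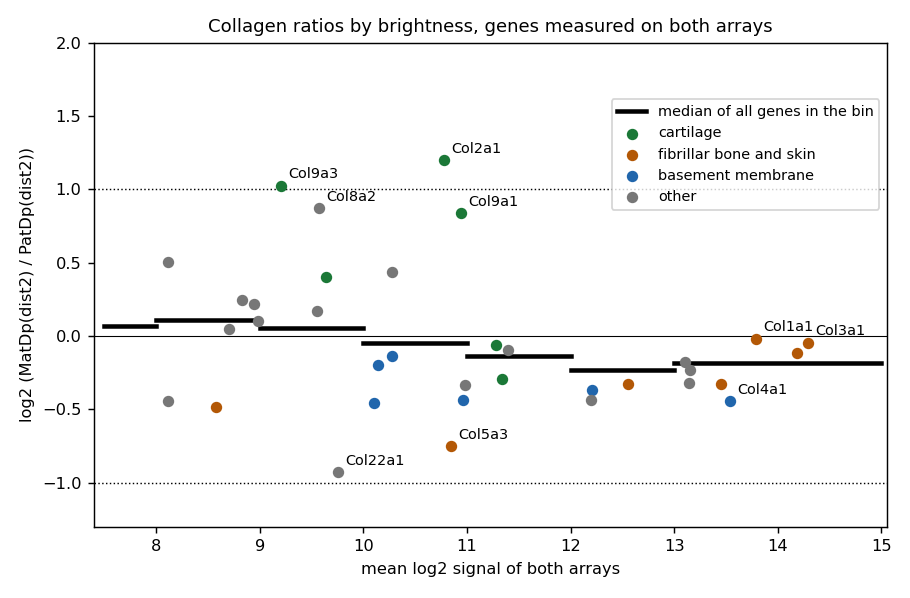
Log2 ratio of MatDp(dist2) over PatDp(dist2) against the mean log2 signal for the 35 collagen genes measured on both arrays, coloured by class; black bars are the medians of all genes in each brightness range and dotted lines mark 2-fold. The all-gene median lies at 0.11 between 8 and 9 and at -0.23 between 12 and 13, and Col2a1, Col9a1 and Col9a3 lie well above the bars at their brightness.

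Most basement membrane collagens had modestly lower signals in MatDp(dist2), and none reached 2-fold. Col4a1 and Col4a2, the chains of the widespread type IV network, are neighbours on opposite strands of Chr 8 and read outward from a shared promoter region. Col4a1 had 10225 in MatDp(dist2) against 13897 in PatDp(dist2). Col4a2 had 4153 in MatDp(dist2) against 5365 in PatDp(dist2). Their log2 ratios, -0.44 and -0.37, differed by 0.07, although the second Col4a1 probe set was even, with 3116 in MatDp(dist2) against 3118 in PatDp(dist2). Col15a1 and Col18a1, which carry sugar chains and sit in vessel and muscle basement membranes, had log2 ratios of -0.45 and -0.43. Col15a1 had 942 in MatDp(dist2) against 1289.7 in PatDp(dist2). Col18a1 had 1715 in MatDp(dist2) against 2317 in PatDp(dist2). The second Col18a1 probe set was nearly even, with 893.9 in MatDp(dist2) against 938.3 in PatDp(dist2), a log2 ratio of -0.07.

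The chains of the specialised type IV networks were dim apart from Col4a5. Col4a6, a chain of the epidermal and smooth muscle basement membrane, had 296 in MatDp(dist2) against 171 in PatDp(dist2) on 1421006_at, at least 1.58-fold. Its other probe set lay below the floor on both arrays, with 104.5 in MatDp(dist2) against 39.5 in PatDp(dist2). Col4a5, the X-linked neighbour of Col4a6, had 1185 in MatDp(dist2) against 1304 in PatDp(dist2) on the brighter probe set. On the other it had 441 in MatDp(dist2) against 370.4 in PatDp(dist2). Col4a3, of the kidney, lung and inner ear network, had 220.0 in MatDp(dist2) against 133 in PatDp(dist2) on 1450224_at. The other Col4a3 probe set lay below the floor on both arrays, with 43 in MatDp(dist2) against 54.2 in PatDp(dist2). All 3 probe sets of Col4a4, the partner of Col4a3, also lay below the floor. Col7a1, the anchoring fibril of skin, had 1051 in MatDp(dist2) against 1206 in PatDp(dist2), a log2 ratio of -0.20. In the class 6 of 8 measured genes had a negative log2 ratio and the other 2 were the bounds of Col4a3 and Col4a6, with 6 negative under each of the deposited scaling, median centring, quantile normalization and the loess fit.

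Partners of the basement membrane and vessel cells lay on the same side. Of 15 measured laminin, nidogen and related genes, 11 had the lower signal in MatDp(dist2), 0 were 2-fold apart, and the median log2 ratio was -0.28. Lamb1, a laminin chain, had 2574 in MatDp(dist2) against 5079.5 in PatDp(dist2), just short of 2-fold. Nid1, the linker nidogen, had 5181 in MatDp(dist2) against 7284 in PatDp(dist2). All 12 endothelial and pericyte genes had the lower signal in MatDp(dist2), 2 by at least 2-fold, with a median of -0.60. The receptor gene Flt1 had 333 in MatDp(dist2) against 766 in PatDp(dist2). The other was the receptor gene Tek, with 568 in MatDp(dist2) against 1195 in PatDp(dist2). Vessel signals summed to 9637 in MatDp(dist2) and to 14563 in PatDp(dist2), and skeletal muscle signals to 116443 in MatDp(dist2) and 160781 in PatDp(dist2). Their part in the basement membrane ratios was not tested.

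The other collagen types split evenly, with 8 of 16 measured genes higher in signal in MatDp(dist2) and 0 past 2-fold. Type VIII forms a lattice in the cornea and around vessels, and its gene Col8a2 had the highest ratio of these. Col19a1, at a log2 ratio of 0.50, came between Col8a2 and Col8a1. Col8a2 had 1030.5 in MatDp(dist2) against 562 in PatDp(dist2), 1.83-fold and just outside the threshold. Col8a1 had 1444 in MatDp(dist2) against 1068 in PatDp(dist2) on one probe set and 949 in MatDp(dist2) against 712 in PatDp(dist2) on another, log2 ratios of 0.44 and 0.41 that lie close together, and its remaining probe set lay below the floor. The lens list, which holds no cornea genes, stood at a median of at least 11.1-fold higher in MatDp(dist2). Its signals summed to 36986 in MatDp(dist2) against 472.5 in PatDp(dist2). All 12 lens genes were below the floor in PatDp(dist2). The cornea gene Kera went the other way, with 611 in MatDp(dist2) against 1118 in PatDp(dist2). Whether type VIII followed lens or cornea content was not tested.

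At the other end lay Col22a1, known from the junctions of muscle with tendon. Its brightest probe set, 1453084_s_at, had 627 in MatDp(dist2) against 1193 in PatDp(dist2), 1.90-fold lower with the maternal duplication of distal Chr 2 and just outside the threshold. A second had 537 in MatDp(dist2) against 654 in PatDp(dist2), a log2 ratio of -0.28, and the last had 155 in MatDp(dist2) against 222 in PatDp(dist2), a bound of -0.25. All 14 skeletal muscle genes had the lower signal in MatDp(dist2), 6 of them by at least 2-fold, and the median log2 ratio was -0.60. Their part in the Col22a1 ratio was not tested.

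Type VI, the beaded filament around muscle fibres and connective tissue cells, differed little and its chains lay close together. Col6a1 had 8111 in MatDp(dist2) against 10130.2 in PatDp(dist2). Col6a2 had 8412 in MatDp(dist2) against 9851 in PatDp(dist2). Col6a3 had 8294 in MatDp(dist2) against 9369 in PatDp(dist2). Their log2 ratios were -0.32, -0.23 and -0.18, of which quantile normalization turned those of Col6a2 and Col6a3 to 0.01 and 0.05. Col6a4 and Col6a5 lay below the floor in both heads, the brighter Col6a4 probe set with 89.1 in MatDp(dist2) against 83.7 in PatDp(dist2). Fibril-associated types, which sit on the surface of other fibrils, also differed by less than 2-fold. Col14a1 had 4043 in MatDp(dist2) against 5459 in PatDp(dist2). Col16a1 had 2600.1 in MatDp(dist2) against 2775 in PatDp(dist2). The dimmer Col20a1 had 238 in MatDp(dist2) against 324 in PatDp(dist2). Col19a1, a sparse collagen of basement membrane zones, had 329 in MatDp(dist2) against 232 in PatDp(dist2) on one probe set but 189 in MatDp(dist2) against 240.3 in PatDp(dist2) on another.

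The membrane-spanning collagens Col13a1, Col17a1, Col23a1 and Col25a1 all had slightly higher signals in MatDp(dist2), with log2 ratios from 0.04 to 0.25, although median centring, quantile normalization and the loess fit each put Col13a1 and Col23a1 below 0. Col13a1 had 524.3 in MatDp(dist2) against 487.2 in PatDp(dist2). Col23a1 had 423.4 in MatDp(dist2) against 410.4 in PatDp(dist2). Col25a1 had 531.9 in MatDp(dist2) against 456.6 in PatDp(dist2). None of these gaps was wide. Col17a1, which ties basal skin cells to the basement membrane at hemidesmosomes, had 496 in MatDp(dist2) against 418 in PatDp(dist2). Basal epidermis and hemidesmosome genes had a median log2 ratio of 0.45 over 9 genes with 0 past 2-fold. That median was 0.09 with the mean over probe sets. Of the 9 genes 5 had a positive ratio, while Plec, Dst, Itga6 and Itgb4 had ratios of -0.66, -0.24, -0.24 and -0.07. All 10 genes of suprabasal and cornified epidermis were at least 2-fold higher in MatDp(dist2), with a median of at least 10.7-fold. Col26a1 had 797 in MatDp(dist2) against 708 in PatDp(dist2), a log2 ratio of 0.17 that median centring put at -0.04.

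Enzymes and partners that act on collagens were mostly even as deposited. The median log2 ratio of 20 measured genes for folding and modification was -0.08 as deposited, 0.01 with the loess fit and -0.30 with median centring. Of these genes, 1 was 2-fold apart. That gene was Tmem38b, an ion channel of the endoplasmic reticulum needed for collagen assembly in bone cells, with 815 in MatDp(dist2) against 1973 in PatDp(dist2). Plod2, which hydroxylates lysines used for crosslinks, had 2332 in MatDp(dist2) against 3514 in PatDp(dist2). P4hb, a subunit of the prolyl hydroxylase, had 8266 in MatDp(dist2) against 9261 in PatDp(dist2). Of 10 genes for procollagen processing and crosslinking 0 were 2-fold apart, with a median of -0.18. Among them Lox, the crosslinking oxidase, had 4268 in MatDp(dist2) against 5622 in PatDp(dist2). Adamts3, a procollagen protease, had 357.5 in MatDp(dist2) against 236 in PatDp(dist2).

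Proteins that bind collagen fibrils leaned to PatDp(dist2) without reaching 2-fold. Of 17 genes 14 had the lower signal in MatDp(dist2) and the median log2 ratio was -0.42. Prelp, a leucine-rich proteoglycan, had 746.5 in MatDp(dist2) against 1471 in PatDp(dist2). Kera, the cornea proteoglycan keratocan, had 611 in MatDp(dist2) against 1118 in PatDp(dist2). Fbln1, an elastic fibre protein, was on the other side with 1506 in MatDp(dist2) against 931 in PatDp(dist2). Tnxb, a tenascin of skin and tendon matrix, had 212.9 in MatDp(dist2) against 366.6 in PatDp(dist2). The 3 widest ratios of the list, those of Prelp, Kera and Tnxb, were all lower in MatDp(dist2). Among 6 measured collagen receptors, Itga1 was 2-fold apart. This integrin subunit had 231 in MatDp(dist2) against 484 in PatDp(dist2). The receptor kinase Ddr2 had 1147 in MatDp(dist2) against 1537 in PatDp(dist2). Of 10 collagenase, gelatinase and related genes 0 were 2-fold apart, with a median of -0.22. Mmp13, the cartilage and bone collagenase, had 2255 in MatDp(dist2) against 3517 in PatDp(dist2). Fap, a fibroblast protease, had 2764 in MatDp(dist2) against 4471 in PatDp(dist2).

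**Figure D4:**
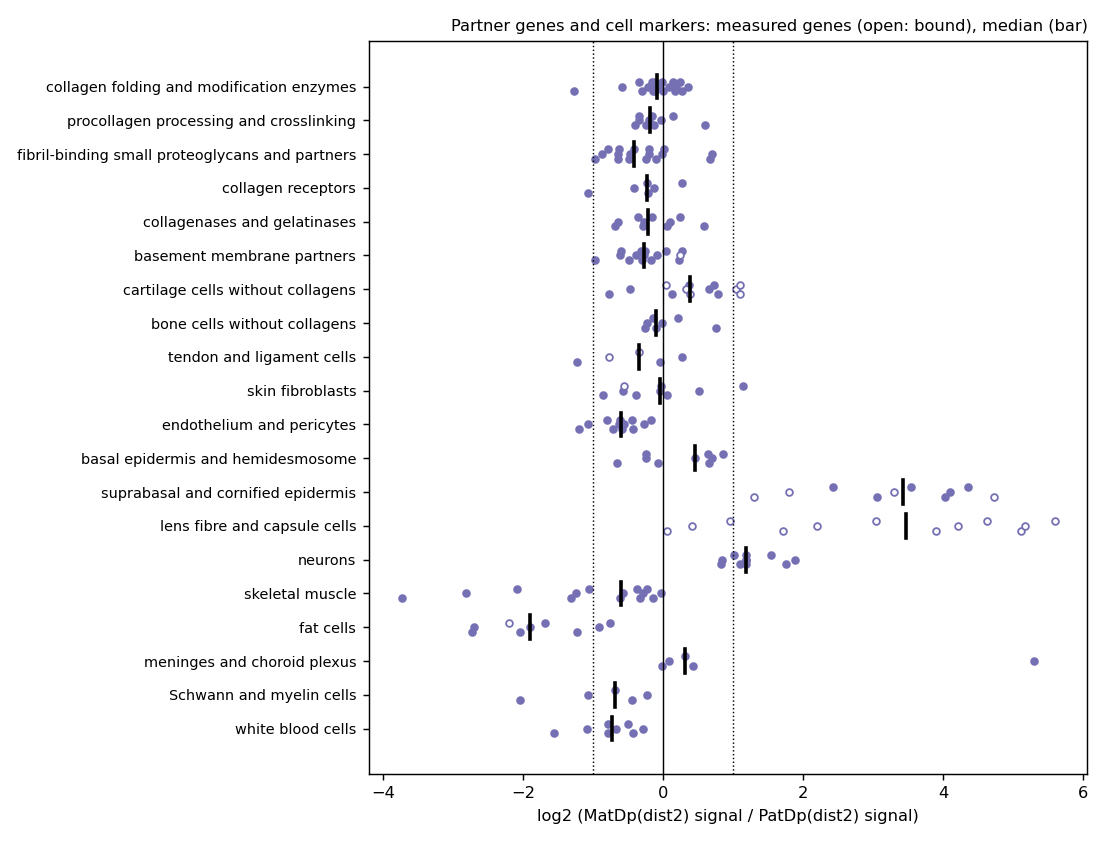
Log2 ratio of MatDp(dist2) over PatDp(dist2) for the measured genes of 20 lists of collagen partners and cell markers; open circles are bounds, black bars the medians of the lists and dotted lines mark 2-fold. Partner lists of the collagens lie within 0.5 of 0 by their medians, while cornified epidermis and lens lie beyond 3 and fat cells at -1.90.

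Markers of neurons, fat, white blood cells and myelin had wider median ratios, as deposited, than any collagen class, whereas those of meninges and choroid plexus did not. Neuron genes had a median log2 ratio of 1.18 over 11 genes, led by Tubb3, a neuronal tubulin, with 2853 in MatDp(dist2) against 775 in PatDp(dist2). Fat cell genes had a median of -1.90 over 9 genes, with Plin4, a lipid droplet protein, at 453 in MatDp(dist2) against 3007 in PatDp(dist2). White blood cell genes had -0.73 over 8, myelin genes -0.69 over 5, and meninges and choroid plexus genes 0.31 over 5, the last with Ttr at 12952 in MatDp(dist2) against 327 in PatDp(dist2). The other 4 measured genes of that last list stayed under 2-fold, and 3 more lay below the floor on both arrays. No label gives the share of each tissue in the RNA of each head, and its part in the collagen ratios was not tested.

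By position, 3 collagen genes lie on Chr 2 and 5 on Chr 9, the chromosomes of the translocation, and the other 34 lie elsewhere. The labels do not place the breakpoint. In the gene order of GRCm38.p6, Col9a3 and Col20a1 lie distal of H13, an imprinted gene of distal Chr 2, with 39 and 29 of the 1399 Chr 2 genes on the arrays beyond them. They went opposite ways, with log2 ratios of 1.03 and -0.44. The Col20a1 ratio rests on a dim probe set, with 238 in MatDp(dist2) against 324 in PatDp(dist2). All other Col20a1 probe sets lay below the floor on both arrays. Col5a1, at -0.33, lies near the proximal end, with 1191 genes beyond it. On Chr 9, Col5a3, Col12a1 and Col7a1 had log2 ratios of -0.75, -0.33 and -0.20, with 921, 402 and 170 of 1002 genes beyond them, and Col6a5 and Col6a4 were below the floor. Col2a1 and Col9a1, with ratios like that of Col9a3, lie on Chr 15 and Chr 1, outside the duplicated chromosomes.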

How the data were processed

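The values are the intensity signals deposited by the authors for 45101 probe sets on 2 arrays, made with MAS5 and GCOS, versions unstated, per the submitters' processing notes. Each array's mean without the lowest and highest 2% of signals was 500.002. Per the labels' protocols, biotin-labelled cRNA was hybridised, and detection calls were not used here. From these signals log2 ratios were computed in Python 3.11.15 with pandas 2.3.3 and numpy 2.4.6. After 64 control probe sets were left out, 34945 had 1 gene symbol in the platform annotation, 932 had several and 9160 were unnamed. Symbols were updated by gene ID through RefSeq for GRCm38.p6. The probe set brightest on average over both arrays stood for each gene.

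A single array per genotype allows no test, and the number of arrays limits precision. The text names every collagen gene, and from each list up to 4 genes with the widest ratio and the brightest gene, as far as space allows. A few other list genes, such as Cilp, Dst, Itga6 and Itgb4, are named because they went the other way from their list median. Members, classes and the 20 lists, 223 genes on the arrays, were chosen with earlier results of these data known. Calling was tested on simulated data. Alternatives were median centring, quantile normalization, a loess fit, floors at the 30th and 70th percentile, an offset of 100, the mean over probe sets, and thresholds of 1.5-fold and 3-fold.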

Additional observations from a re-analysis of the deposited data

How the results depend on the processing

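The direction of the class medians held for cartilage (positive), fibrillar and basement membrane genes (negative) as deposited and under all 7 alternatives that change values. The median of cartilage genes ranged from 0.19 with median centring to 0.70 with the mean over probe sets. The 0.70 rests on 6 genes, since that mean leaves out the bound of Col9a2. As deposited, the median of the 6 cartilage genes measured on both arrays was 0.62. The median of fibrillar genes ranged from -0.54 to -0.08, and that of basement membrane genes from -0.50 to -0.18. The median of all collagens ranged from -0.32 with median centring to 0.00 with the loess fit, and that of the other types from -0.24 to 0.06, so neither has a direction that held throughout. Median centring put the median of all genes at -0.19, against 0.02 as deposited, and relative to it the cartilage median was 0.37 against 0.38 as deposited. The count of collagens at least 2-fold higher in MatDp(dist2), 2 as reported, was 0 with median centring and at a 3-fold threshold, 5 at 1.5-fold, and 1 with quantile normalization, the loess fit, the floor at the 70th percentile and the offset of 100, with Col2a1 left in those 4. The same 0 and 1 hold for cartilage genes, while at 1.5-fold basement membrane and other types had 1 each. In the other direction, median centring gave 1 collagen, Col22a1 of the other types, with a log2 ratio of -1.14, and 1.5-fold gave 2, of which 1 was fibrillar and 1 of the other types. The log2 ratio of Col2a1 ranged from 0.99 to 1.25 and that of Col9a3 from 0.81 to 1.16. Of 256 gene values under alternatives, 248 kept their call within 1.5-fold of the reported value. The 497 list values were counts of called genes and list medians, and 446 of them stayed the same. A count stayed the same if it equalled the reported count or lay within 1.5-fold of it. Medians were judged by the rule for genes. The cause was not tested. No paired analysis was possible because each genotype has 1 array. Precision is limited by the single array and, for dim genes such as Col9a2, Col4a3 and Col4a6, by the floor.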
